A study of Mus musculus with 11 samples.

Results

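The genes described here are 46 genes of S phase and mitosis, taken by symbol from the 55401 genes of the deposited count and allelic tables. All 46 were present in both tables, and all 46 passed the filter on low counts. RNA of hippocampus was sequenced from 11 female F1 mice of reciprocal crosses between BL6 and CAST, with 1 library per mouse. The 5 old mice were 101 to 104 weeks old, 3 with a BL6 mother and 2 with a CAST mother. The 6 young mice were 8 or 9 weeks old, 3 from each direction of the cross. Every mouse carried 1 BL6 and 1 CAST copy of each autosomal gene, and no other genotype or treatment is given. The series set out to follow epigenetic and transcriptional change with age in the brain, and the question here is how transcripts of dividing cells stood in old against young hippocampus.

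Before a cell divides, MCM helicases open the DNA, polymerases held by the PCNA clamp copy it, and thymidylate synthase, thymidine kinase and ribonucleotide reductase supply nucleotides. Mitotic entry is driven by cyclin B with CDK1, after which condensins and topoisomerase II shape the chromosomes, the kinetochores attach them to the spindle, Aurora kinases and the BUB checkpoint watch the attachment, and the centralspindlin and anillin machinery cuts the cell apart. Most neurons of the hippocampus do not divide. The cells that do are mainly neural progenitors of the dentate gyrus, whose division is known to decline with age, and oligodendrocyte precursor cells spread through the tissue, with fewer vascular and microglial cells.

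The libraries held between 111.1 M and 214.8 M counts each, and the single members had from 4 to 8714 counts in a library. Levels are given as CPM, counts scaled to the library size with TMM factors. Levels of single genes are compared with each other as TPM, which also divides by gene length. CPM summed over a list is not scaled by length and is led by the genes with the most counts. Dentate granule and CA1 markers were present in every library, at summed levels of at least 609 and 482 CPM. Striatal markers summed to 3416 CPM in young replicate 2, 2141 in young replicate 6 and 1179 in old replicate 3, against 186 to 401 CPM in the other libraries. Counts of called members are given with and without these 3 libraries. The labels do not say whether mice of a group were littermates.

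Of the 46 genes, 6 fell in old mice and 0 rose: Aspm, Cenpf, Top2a, Ect2, Rrm2 and Aurkb (edgeR quasi-likelihood test, adjusted p under 0.05). They act in chromosome untangling, the kinetochore, the spindle pole, cytokinesis, nucleotide supply and the chromosomal passenger complex. Over all 29383 genes tested, 0.0953% fell by this rule and 0.211% rose. At an unadjusted p under 0.05, 27 members were lower in old mice and 0 higher, where 5.07% of all genes were lower and 7.46% higher. In 16 members every old mouse was below every young mouse, a separation seen in 0.681% of all genes, and in 0 members was the order the opposite. The log2 difference was under -1 in 15 members, against 1.66% of all genes. The median log2 difference, old minus young, was -0.58 over the members and 0.0012 over all genes tested, and 42 of the 46 values were negative, against 49.8% of all genes. The 46 members were chosen with earlier results of these data known, so their excess over all genes is no independent evidence. In GRCm38 the 6 genes lie at chr1:139454772-139494091 (Aspm, ENSMUSG00000033952.14), chr1:189640606-189688086 (Cenpf, ENSMUSG00000026605.14), chr11:98992943-99024189 (Top2a, ENSMUSG00000020914.17), chr3:27097222-27153878 (Ect2, ENSMUSG00000027699.19), chr12:24708241-24714146 (Rrm2, ENSMUSG00000020649.11) and chr11:69045647-69051664 (Aurkb, ENSMUSG00000020897.12). In bulk tissue, fewer dividing cells and less RNA per dividing cell cannot be told apart.

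**Figure D1:**
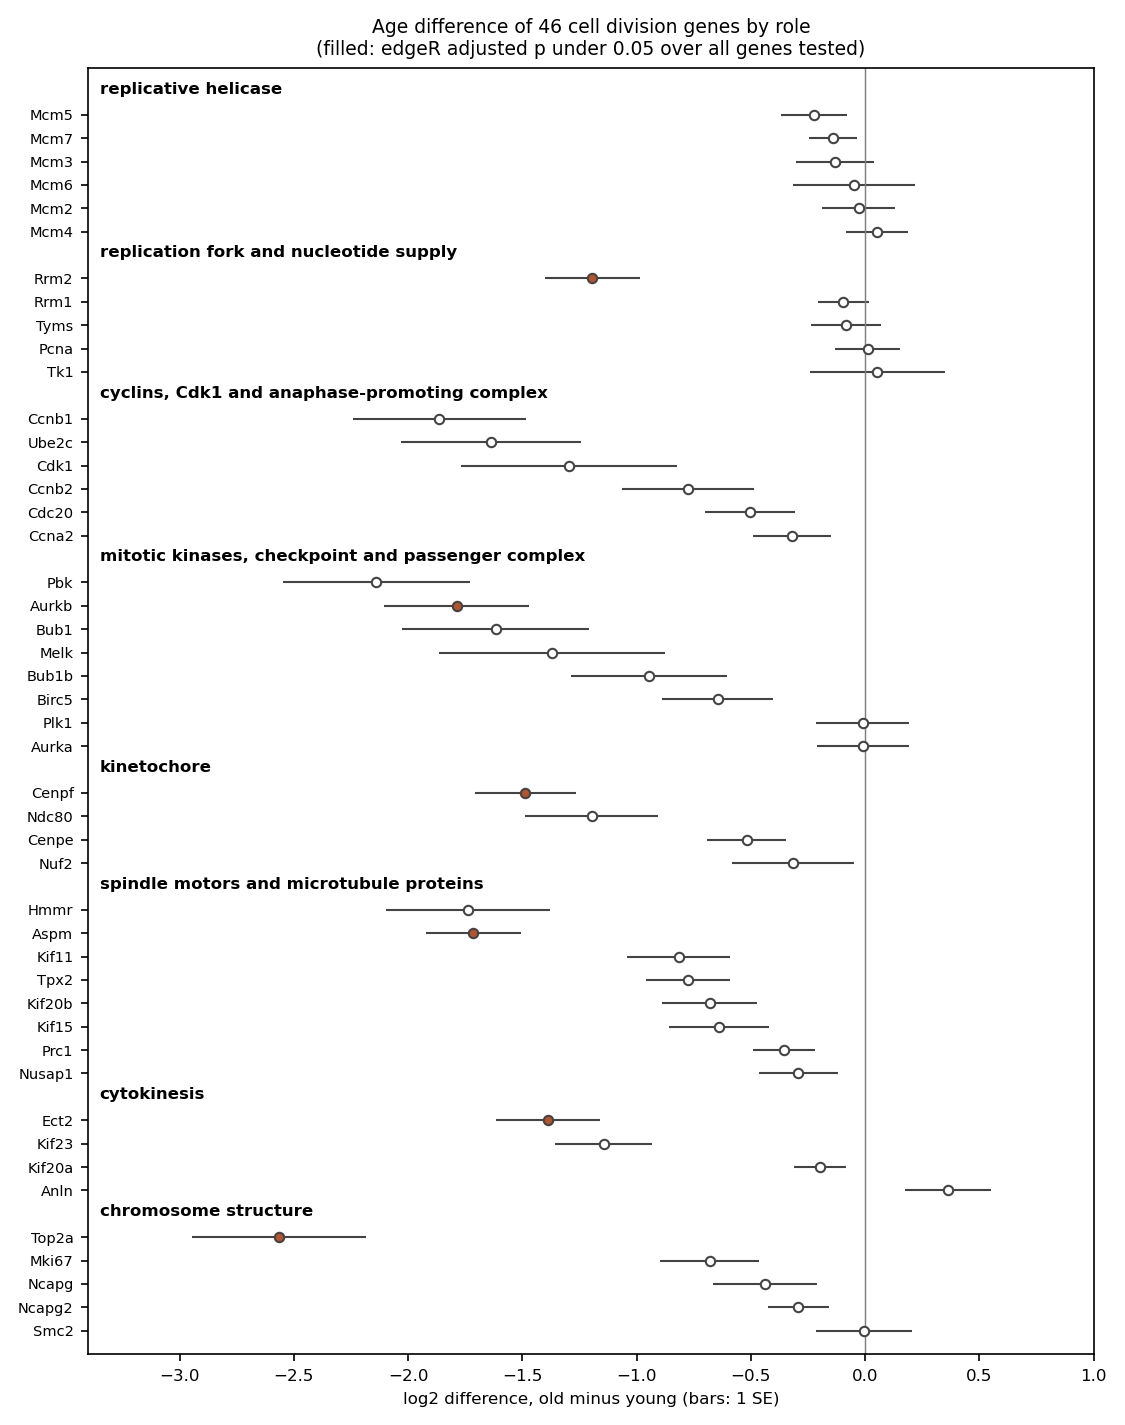
The log2 difference of each of the 46 genes, old minus young, on the horizontal axis, with bars of 1 SE, grouped by role and with filled points for the 6 genes that passed the test. The points lie between -2.56 for Top2a and 0.36 for Anln, with the 6 MCM genes near 0.

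Top2a, the topoisomerase that untangles sister chromatids, had the lowest log2 difference of the members and the third lowest of all genes tested. Its level was 0.437, 0.989, 0.373, 0.578 and 0.272 CPM in old replicates 1 to 5, and in young mice the lowest was 2.17, the median 2.82 and the highest 5.99 CPM. The highest old mouse was thus below the lowest young mouse. The mean was 0.530 ± 0.280 CPM (SD, n = 5) in old and 3.23 ± 1.42 CPM (SD, n = 6) in young mice, and the fitted log2 difference was -2.56 with SE 0.38, a fitted 5.92-fold difference (edgeR adjusted p = 0.0191).

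Aspm encodes a spindle pole protein needed for the divisions of neural progenitors. Old mice had 0.662, 0.776, 0.628, 0.673 and 0.531 CPM, and young mice had a lowest value of 1.76, a median of 1.97 and a highest of 3.38 CPM. Every young mouse was above every old mouse, and young replicate 2 stood well above the other young mice. Aspm had the smallest p of the members, with means of 0.654 ± 0.0883 CPM (SD, n = 5) and 2.19 ± 0.597 CPM (SD, n = 6) and a log2 difference of -1.72 with SE 0.21 (edgeR adjusted p = 0.00558).

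Cenpf, a large kinetochore and nuclear matrix protein of G2 and mitosis, was at 1.05, 1.36, 0.902, 1.02 and 0.847 CPM in the old mice. The young mice ranged from 2.30 through a median of 2.69 to 4.39 CPM, all above the old mice. Its mean was 1.04 ± 0.2005 CPM (SD, n = 5) against 2.96 ± 0.816 CPM (SD, n = 6), a log2 difference of -1.49 with SE 0.22 (edgeR adjusted p = 0.0191).

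Ect2 activates RhoA where the cleavage furrow forms. Its values in old mice were 0.219, 0.304, 0.242, 0.366 and 0.278 CPM, and in young mice the lowest, median and highest were 0.619, 0.694 and 1.16 CPM. There was no overlap, and the log2 difference was -1.39 with SE 0.23 (edgeR adjusted p = 0.0323).

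Rrm2 is the S phase subunit of ribonucleotide reductase. Old mice held 0.617, 0.540, 0.628, 0.5999 and 0.657 CPM, and young mice went from 1.02 over a median of 1.36 to 2.00 CPM. The old mice spread by only 0.0434 CPM (SD, n = 5) around their mean of 0.608 CPM. The young mean was 1.41 ± 0.374 CPM (SD, n = 6) and the log2 difference -1.19 with SE 0.21 (edgeR adjusted p = 0.0360).

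Aurkb is the kinase of the chromosomal passenger complex, which corrects wrong attachments. It was the scarcest of the 6 by mean TPM, at 0.156. Its level was 0.0578, 0.137, 0.0915, 0.0805 and 0.101 CPM in old mice. The lowest, median and highest of the young mice were 0.242, 0.276 and 0.532 CPM. These levels rest on 9 to 93 counts per library. All young mice were above all old mice, with a log2 difference of -1.79 and SE 0.32 (edgeR adjusted p = 0.0378).

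The next 4 genes by p missed the threshold although their groups did not overlap either. Kif23, the motor of centralspindlin, stood at 0.405, 0.578, 0.660, 0.519 and 0.443 CPM in old mice against 0.866, 1.20 and 1.39 CPM (lowest, median, highest) in young mice (log2 difference -1.14, edgeR adjusted p = 0.0520). Pbk, a mitotic kinase, stood at 0.116, 0.205, 0.0850, 0.139 and 0.0379 CPM against 0.321, 0.455 and 0.830 CPM (log2 difference -2.14, edgeR adjusted p = 0.0553). The highest old mouse was replicate 3 for Kif23 and replicate 2 for Pbk. Ccnb1, cyclin B1, stood at 0.0643, 0.251, 0.144, 0.0878 and 0.107 CPM against 0.327, 0.444 and 0.852 CPM (log2 difference -1.86, edgeR adjusted p = 0.0733). For Hmmr, a spindle assembly protein, the values were 0.122, 0.122, 0.0392, 0.0585 and 0.114 CPM against 0.195, 0.270 and 0.469 CPM (log2 difference -1.74, edgeR adjusted p = 0.0804). DESeq2, run beside edgeR, called all 4 of these genes.

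**Figure D2:**
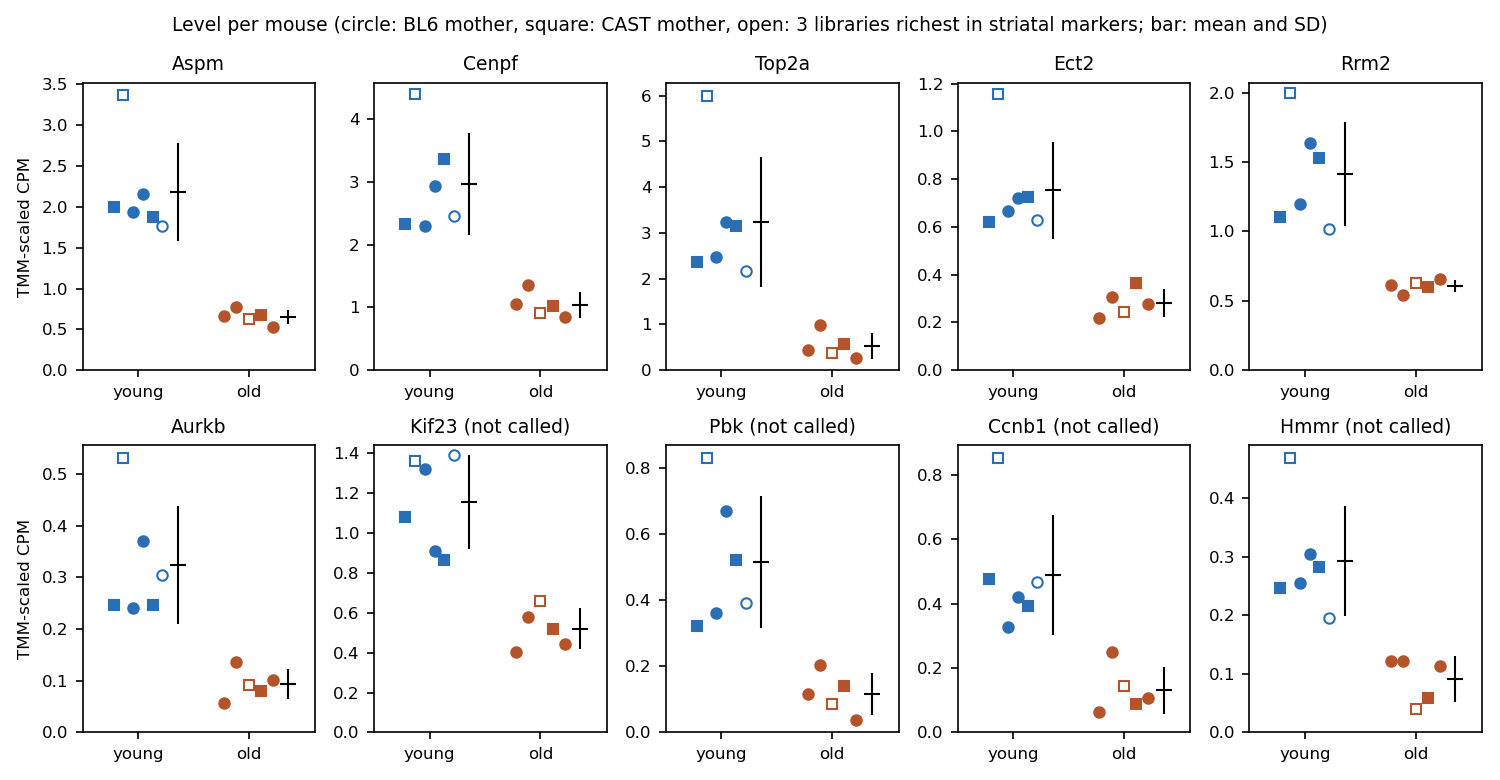
TMM-scaled CPM of 10 genes, 1 point per mouse, young in blue and old in brown, with bars for the mean and SD of each group, circles for a BL6 mother, squares for a CAST mother and open points for the 3 libraries richest in striatal markers. In all 10 panels the highest old mouse lies below the lowest young mouse, and young replicate 2, an open square, is the highest young mouse in every panel but that of Kif23.

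The promoters of the 4 fallen genes with the smallest p are shown with that of Smc2, a condensin subunit whose p was the nearest to 1 (log2 difference -0.0041), so that windows of genes at either end of the age comparison can be read together. Transcription of late cell cycle genes is known to run through CHR elements, bound by the DREAM and MYB-MuvB complexes, often with CCAAT boxes bound by NF-Y, and that of S phase genes through E2F sites. Each window is the 250 bases before the RefSeq start (GRCm38.p6), written 5′ to 3′ on the gene's strand. Capitals mark a CHR, TTTGAA or TTCGAA, or a CCAAT box, CCAAT, read on either strand. The windows are chr1:139454523-139454772 (plus strand) for Aspm, chr1:189688087-189688336 (minus strand) for Cenpf, chr11:99024190-99024439 (minus strand) for Top2a, chr3:27153879-27154128 (minus strand) for Ect2 and chr4:52438971-52439220 (plus strand) for Smc2.
Aspm: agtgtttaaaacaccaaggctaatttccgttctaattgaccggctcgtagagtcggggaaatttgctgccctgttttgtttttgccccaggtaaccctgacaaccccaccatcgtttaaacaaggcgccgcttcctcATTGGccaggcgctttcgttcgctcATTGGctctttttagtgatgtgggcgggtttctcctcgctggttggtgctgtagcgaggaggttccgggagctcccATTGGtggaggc
Cenpf: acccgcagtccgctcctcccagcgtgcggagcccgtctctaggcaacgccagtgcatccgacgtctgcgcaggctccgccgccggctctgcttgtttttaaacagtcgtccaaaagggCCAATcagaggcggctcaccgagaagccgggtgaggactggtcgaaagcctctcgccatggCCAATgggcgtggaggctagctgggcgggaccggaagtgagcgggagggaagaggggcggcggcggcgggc
Top2a: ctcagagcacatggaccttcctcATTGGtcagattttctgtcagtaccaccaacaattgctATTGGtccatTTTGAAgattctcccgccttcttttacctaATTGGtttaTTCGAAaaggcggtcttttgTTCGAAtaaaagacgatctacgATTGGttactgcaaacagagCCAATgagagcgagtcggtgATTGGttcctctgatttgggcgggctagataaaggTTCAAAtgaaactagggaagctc
Ect2: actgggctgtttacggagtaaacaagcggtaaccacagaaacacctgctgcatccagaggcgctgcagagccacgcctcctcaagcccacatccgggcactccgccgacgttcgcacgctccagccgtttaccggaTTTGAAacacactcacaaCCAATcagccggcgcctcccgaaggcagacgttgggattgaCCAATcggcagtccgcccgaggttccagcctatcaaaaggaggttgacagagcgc
Smc2: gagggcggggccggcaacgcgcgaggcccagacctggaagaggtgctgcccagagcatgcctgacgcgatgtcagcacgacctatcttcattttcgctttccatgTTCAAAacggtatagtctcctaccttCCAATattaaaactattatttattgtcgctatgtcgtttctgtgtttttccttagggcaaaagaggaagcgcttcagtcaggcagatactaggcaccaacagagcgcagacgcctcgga

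The Top2a window held 4 CHR and 6 CCAAT matches, the most of these 5 windows. Ect2 held 1 CHR and 2 CCAAT boxes, Aspm 3 CCAAT boxes and Cenpf 2, the last pair with 0 CHR matches. Smc2 held 1 of each. RefSeq windows were matched for 40 of the 46 members, leaving out Mcm4, Aurkb, Kif20a, Ccna2, Pbk and Tpx2. A CHR was present in 15 of the 40 (37.5%), against 17.1% of 32851 promoters of the same length, and a CCAAT box in 29 (72.5%), against 33.8%. E2F sites were searched on both strands in 4 forms. One form was spelled TTGGCGC and the next was spelled TTCCCGC. The other two were spelled TTGCCGC in one case and TTCGCGC in the other. At least 1 of these forms was present in 11 members (27.5%), against 7.89% of all promoters. All 3 motifs were present together in Mcm7, Cdk1 and Mki67, or 7.5% of the members against 0.356% of all promoters. Among the 5 fallen genes with a window, 2 held a CHR, 5 a CCAAT box and 1 an E2F site. Among the 35 matched members that did not pass the test, the shares were 37.1%, 68.6% and 28.6%. A CCAAT box on one strand can share bases with TTGGCGC on the other, and a match describes letters, not binding.

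Read by role, the difference was small at the replication fork and larger in mitosis, but role was not separated from level. The MCM genes, Pcna, Rrm1, Tyms and Tk1 all had a mean TPM above the members' median of 0.81. Rrm2, at 0.782, was below it. Members above that median, mitosis genes included, had log2 differences from -0.77 to 0.36. The replicative helicase genes Mcm2 to Mcm7 had log2 differences from -0.22 to 0.05 with a median of -0.09, and 0 of 6 had an unadjusted p under 0.05. Mcm2 stood at 5.15 ± 0.848 CPM (SD, n = 5) in old and 5.15 ± 0.895 CPM (SD, n = 6) in young mice. Of the 5 genes of the fork and of nucleotide supply, Rrm2 alone fell. Pcna, the sliding clamp, had a log2 difference of 0.01 with SE 0.14, Rrm1, the constitutive partner of Rrm2, -0.09 with SE 0.11, Tyms, thymidylate synthase, -0.08 with SE 0.15, and Tk1, thymidine kinase, 0.05 with SE 0.30. The median of these 5 was -0.08.

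The genes that start mitosis and end it by proteolysis had a median log2 difference of -1.04, and 5 of the 6 had an unadjusted p under 0.05, although 0 passed the adjusted threshold in edgeR. Besides Ccnb1, the values were -0.78 for Ccnb2, cyclin B2, -1.30 for its kinase Cdk1, and -1.64 for Ube2c, the ubiquitin-conjugating enzyme of the anaphase-promoting complex, whose groups did not overlap. Cdc20, the activator of that complex, was at 0.642 ± 0.122 CPM (SD, n = 5) in old and 0.920 ± 0.154 CPM (SD, n = 6) in young mice. Ccna2, the cyclin of S phase and G2, had a log2 difference of -0.32. Ccna2 overlaps Exosc9 on the opposite strand, Cdc20 overlaps Elovl1 and Ube2c overlaps Tnnc2, and since the strand setting of the counting is not given in the sources used here, reads of such pairs may be mixed. Mcm7, Tk1 and Ncapg likewise overlap the coding genes Cops6 and Ap4m1, Afmid, and Lcorl.

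Among mitotic kinases and checkpoint genes the median was -1.16 and 6 of 8 had an unadjusted p under 0.05. Bub1, the checkpoint kinase, went from 0.296 ± 0.0883 CPM (SD, n = 6) in young to 0.0938 ± 0.0530 CPM (SD, n = 5) in old mice without overlap (log2 difference -1.62, edgeR adjusted p = 0.175). Bub1b, which encodes BubR1, a checkpoint protein known for premature ageing when scarce, had a log2 difference of -0.95 with overlapping groups, 0.458 to 2.82 CPM in old and 1.30 to 2.38 CPM in young mice. Birc5, survivin, which works in 1 complex with Aurkb, was at -0.64, and Melk, a kinase of progenitor cells, at -1.37, with edgeR adjusted p of 0.351 and 0.337. Plk1 and Aurka, kinases of the spindle poles, both had a log2 difference of -0.01, with SE 0.20 each.

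Of the 4 kinetochore genes, Cenpf fell and Ndc80, Cenpe and Nuf2 did not pass. Ndc80, the microtubule-binding subunit, did not overlap between the groups (log2 difference -1.20, edgeR adjusted p = 0.153), whereas its partner in the same complex, Nuf2, was at 2.203 ± 0.685 CPM (SD, n = 5) in old and 2.73 ± 0.821 CPM (SD, n = 6) in young mice. Cenpe, the kinetochore motor, had a log2 difference of -0.52. The spindle group held the most genes whose ages did not overlap, 5 of 8: Aspm, Hmmr, Kif11, Kif20b and Tpx2. Kif11, the motor that pushes the spindle poles apart, had a log2 difference of -0.82, Kif20b, a late mitotic motor, -0.68, and Tpx2, the activator of Aurora A, -0.77, with edgeR adjusted p of 0.229, 0.270 and 0.146. Kif15, a motor that shares the work of Kif11, was at -0.64, Prc1, which bundles the central spindle, at -0.36 and Nusap1 at -0.29. Nusap1, which bundles spindle microtubules, overlaps Oip5, and Prc1 overlaps Rccd1, on opposite strands.

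In cytokinesis, Ect2 fell and its centralspindlin partner Kif23 just missed the threshold. Kif20a, the motor that carries the passenger complex to the midzone, had a log2 difference of -0.20, on a locus that overlaps Cdc23. Anln, the scaffold anillin, was the highest of all members by difference, at 40.4 ± 5.36 CPM (SD, n = 5) in old and 32.8 ± 10.6 CPM (SD, n = 6) in young mice (log2 difference 0.36, edgeR adjusted p = 0.439). In the adult brain Anln is known to be made by myelinating oligodendrocytes. Of the chromosome genes, Top2a fell. Mki67, the Ki-67 protein used as the usual stain for cycling cells, was at 3.69 ± 0.953 CPM (SD, n = 5) and 5.98 ± 1.42 CPM (SD, n = 6), with a log2 difference of -0.68, an unadjusted p of 0.0082 and an edgeR adjusted p of 0.295. Its groups overlapped, from 2.16 to 4.68 CPM in old and from 4.33 to 8.57 CPM in young mice. The condensin genes Ncapg and Ncapg2 had log2 differences of -0.44 and -0.29.

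The size of the difference went with the level of the gene. The 23 members with the lower mean TPM, from 0.0776 to 0.807, held all 6 fallen genes, 15 of the 16 whose groups did not overlap, and log2 differences from -2.56 to -0.44 with a median of -1.30. Among the 23 with the higher TPM, from 0.812 to 20.1, 0 fell, Tpx2 was the 1 whose groups did not overlap, and the differences ran from -0.77 to 0.36 with a median of -0.13. Over all genes tested the medians lay close to 0 in both TPM ranges. From the lowest member to the members' median TPM, 0.271% of 6274 genes fell, with a median of -0.04. In 1.07% of them every old mouse was below every young mouse. From the members' median TPM to the highest member, 0.0411% of 17052 genes fell, with a median of -0.02, and 0.645% were separated in that way. Summed over the lower members, young mice had 24.7 to 37.97 CPM and old mice 11.96 to 16.9 CPM. Summed over the higher members, the means were 191 ± 24.8 CPM (SD, n = 6) in young and 185 ± 20.5 CPM (SD, n = 5) in old mice, so that the total over all 46 genes, 220 ± 28.6 against 199 ± 22.3 CPM, was carried mostly by genes that did not pass the test.

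**Figure D3:**
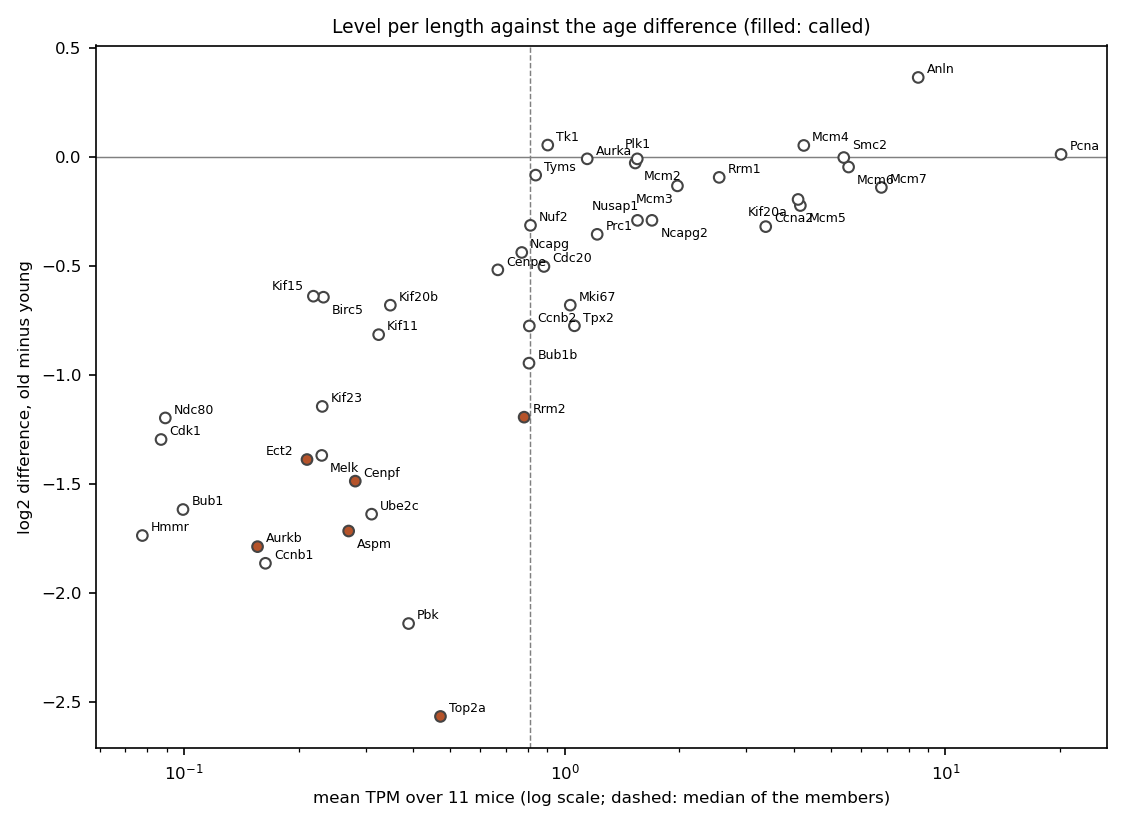
The log2 difference of each member, old minus young, against its mean TPM over 11 mice on a log axis, with filled points for the 6 fallen genes and a dashed line at the median TPM of the members, 0.81. Members left of the line lie between -2.56 and -0.44, and those right of it between -0.77 and 0.36.

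Young replicate 2, the library with the highest striatal markers, was also the highest young mouse in 22 of the 46 members. Of the other striatal-rich libraries, young replicate 6 was the lowest young mouse in 19 members and the highest in 4. Old replicate 3 was the lowest old mouse in 20 and the highest in 7. Libraries not rich in striatal markers held many extremes too. Old replicate 1 was the highest old mouse in 18 members, young replicate 5 the highest young mouse in 13 and young replicate 1 the lowest in 10. The part of striatal tissue in these ranks was not tested. The summed level of the 6 fallen genes was 17.4 CPM in young replicate 2 and 2.69 to 4.11 CPM in the old mice. The lowest young mouse was young replicate 6, at 8.34 CPM. Without young replicates 2 and 6 and old replicate 3, the log2 differences were -1.62 for Aspm, -1.35 for Cenpf, -2.32 for Top2a, -1.21 for Ect2, -1.21 for Rrm2 and -1.64 for Aurkb. Of the members, 0 passed the test on these 8 mice, and 15 of all genes did. The edgeR adjusted p was 0.0547 for Aspm and 0.140 for Top2a. With the mean of the striatal markers as a term, or that of the dentate granule cell markers, 3 genes fell in each fit: Aspm, Cenpf and Top2a. Without young replicate 2 alone it was these 3 as well.

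Leaving out single libraries gave from 1 to 9 fallen members. Aspm passed in all 11 of these fits, and it was the only one without old replicate 1, without old replicate 3 or without old replicate 4. Without old replicate 5, Aspm and Top2a passed, without young replicate 3, Aspm and Cenpf, and without young replicate 5, 9 members. Aurkb kept its call in only 1 of the 11 fits, Ect2 and Rrm2 in 3 each, although their log2 differences stayed between -1.99 and -1.59, -1.49 and -1.26, and -1.30 and -1.09. DESeq2 called 16 members lower, where 0.746% of all genes it gave an adjusted p were called lower.

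Other genes of the same processes were read from lists drawn up with results of these mice known, so that their counts are no independent evidence. Of 52 other mitosis genes tested, 7 fell and 0 rose, against 0.0953% and 0.211% of all genes. Of them, 26 were lower at an unadjusted p under 0.05 (5.07% of all genes). In 17, every old mouse was below every young mouse (0.681% of all genes). The median log2 difference of the list was -0.40. The 4 with the smallest p were Knl1, the kinetochore scaffold that binds BUB1 (-1.88, edgeR adjusted p = 0.0272), Depdc1a (-1.97, edgeR adjusted p = 0.0360), Ckap2, a microtubule nucleator (-1.71, edgeR adjusted p = 0.0360), and Kif2c, the microtubule depolymerase MCAK (-1.64, edgeR adjusted p = 0.0360). Without the 3 libraries richest in striatal markers 0 of the 7 were called, and these 4 had log2 differences of -1.60, -1.78, -1.40 and -1.34 (edgeR adjusted p = 0.142, 0.331, 0.373 and 0.397). With each of the 11 mice left out in turn Knl1 was called in 7 fits and the other 6 in 1 or 2. Of 40 other replication genes, 0 fell and 0 rose, and the median was -0.10. At an unadjusted p under 0.05, 6 were lower and 1 higher, against 5.07% and 7.46% of all genes. Their smallest p belonged to the repressor E2f8, at 0.122 ± 0.0410 CPM (SD, n = 5) in old and 0.312 ± 0.0757 CPM (SD, n = 6) in young mice (edgeR adjusted p = 0.0875). Next came the licensing factor Cdc6 at -0.80, the polymerase subunit Pola1 at -0.43 and Mcm10 at -0.67. Of 5 G1 cyclin and kinase genes 0 passed, with a median of 0.08.

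Of 15 CDK inhibitor and pocket protein genes, 1 rose and 0 fell. Cdkn2a, which encodes p16 and p19ARF and is the usual marker of senescent cells, was at 0.391 ± 0.0453 CPM (SD, n = 5) in old and 0.0747 ± 0.0357 CPM (SD, n = 6) in young mice, a log2 difference of 2.37 with SE 0.30 (edgeR adjusted p = 0.0084). It was 2.71 without the 3 striatal-rich libraries (edgeR adjusted p = 0.0511), and it was called in 10 of the 11 fits that left out 1 mouse. In that list the log2 difference was -0.42 for Rbl1, a pocket protein of DREAM, 0.29 for Lin37, a MuvB subunit, and 0.31 for Trp53, with edgeR adjusted p of 0.329, 0.351 and 0.351. Of the 28 genes that fell in old mice over the whole table, 6 were members, 7 other mitosis genes and 5 markers of cell types that divide or have lately divided. The members and all lists, cell type markers included, were chosen with results of these mice known, so this tally is no independent evidence. That count of 28 is not stable: it was 2 without old replicate 4, 3 without old replicate 1, 4 without young replicate 3, 71 without young replicate 5, 7 to 20 without any other single mouse, 3 without the 3 striatal-rich libraries and 243 with DESeq2.

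Those 5 were Eomes, Draxin, Dcx, Gpr17 and Bmp4. Among 10 neural stem and progenitor markers, Eomes, the factor of intermediate progenitors, fell from 0.676 ± 0.195 CPM (SD, n = 6) to 0.145 ± 0.109 CPM (SD, n = 5), a log2 difference of -2.27 (edgeR adjusted p = 0.0282). Tfap2c stood at -2.19 and Egfr at -0.36, with edgeR adjusted p of 0.187 and 0.232. The list was mixed, with 7 negative and 3 positive differences and a median of -0.33. The 3 positive ones, named after their values were seen, were Sox2 (0.39, edgeR unadjusted p = 0.0208, adjusted p = 0.351), Hopx (0.45) and Hes5 (0.45). Of 9 newborn neuron markers, Draxin had a log2 difference of -2.06 and Dcx, doublecortin, of -0.84, and both fell (edgeR adjusted p = 0.0084 and 0.0450). In that list 6 differences were negative and 3 positive, with a median of -0.37, the highest being 0.66 for Tac2. The list summed to 97.3 to 132 CPM in old and 119 to 205 CPM in young mice, so the groups overlapped. Of 11 oligodendrocyte precursor markers, Gpr17, which marks precursors about to mature, and Bmp4 fell, with log2 differences of -0.86 and -1.31 (edgeR adjusted p = 0.0015 and 0.0336), while the median of the list was -0.26 and its summed level was 394 to 441 CPM in old and 433 to 572 CPM in young mice. In the precursor list 9 differences were negative and 2 positive, the highest being 0.50. The progenitor list summed to 117 to 142 CPM in old and 104 to 161 CPM in young mice, so the groups overlapped in the list as a whole. Without the 3 striatal-rich libraries Eomes (-2.88, edgeR adjusted p = 0.0242) and Gpr17 (-0.88, edgeR adjusted p = 0.0388) were still called. Draxin (-2.24), Dcx (-1.02) and Bmp4 (-1.38) were not, with edgeR adjusted p of 0.0661, 0.142 and 0.278. With each mouse left out in turn Gpr17 was called in 11 of 11 fits, Draxin in 10, Eomes and Bmp4 in 4 and Dcx in 1.

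Of 10 subventricular and olfactory neuroblast markers 0 passed, with a median of -0.06 and sums of 125 to 168 CPM in old and 147 to 166 CPM in young mice. Of 10 microglia markers 0 passed either, but all 10 had an unadjusted p under 0.05 and were higher in old mice. Of all genes, 7.46% were higher at that level. The median of the microglia list was 0.45, with sums of 314 to 363 CPM in old and 178 to 290 CPM in young mice. Leptomeningeal fibroblast markers had a median of -0.70 with 0 of 7 called, and among them Col3a1 and Col1a2 were at -1.95 and -1.63 (edgeR adjusted p = 0.0524 and 0.0527). Their sums were 41.6 to 123 CPM in old and 58.4 to 198 CPM in young mice, and of 8 endothelial, 6 ependymal and 7 choroid plexus markers 0 passed. The striatal list had a median of -1.52, the dentate granule cell list 0.27 and the CA1 list 0.45, each with 0 genes called. The part of these marker lists in the members' differences was not tested, other than by the fits with striatal and dentate terms above.

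**Figure D4:**
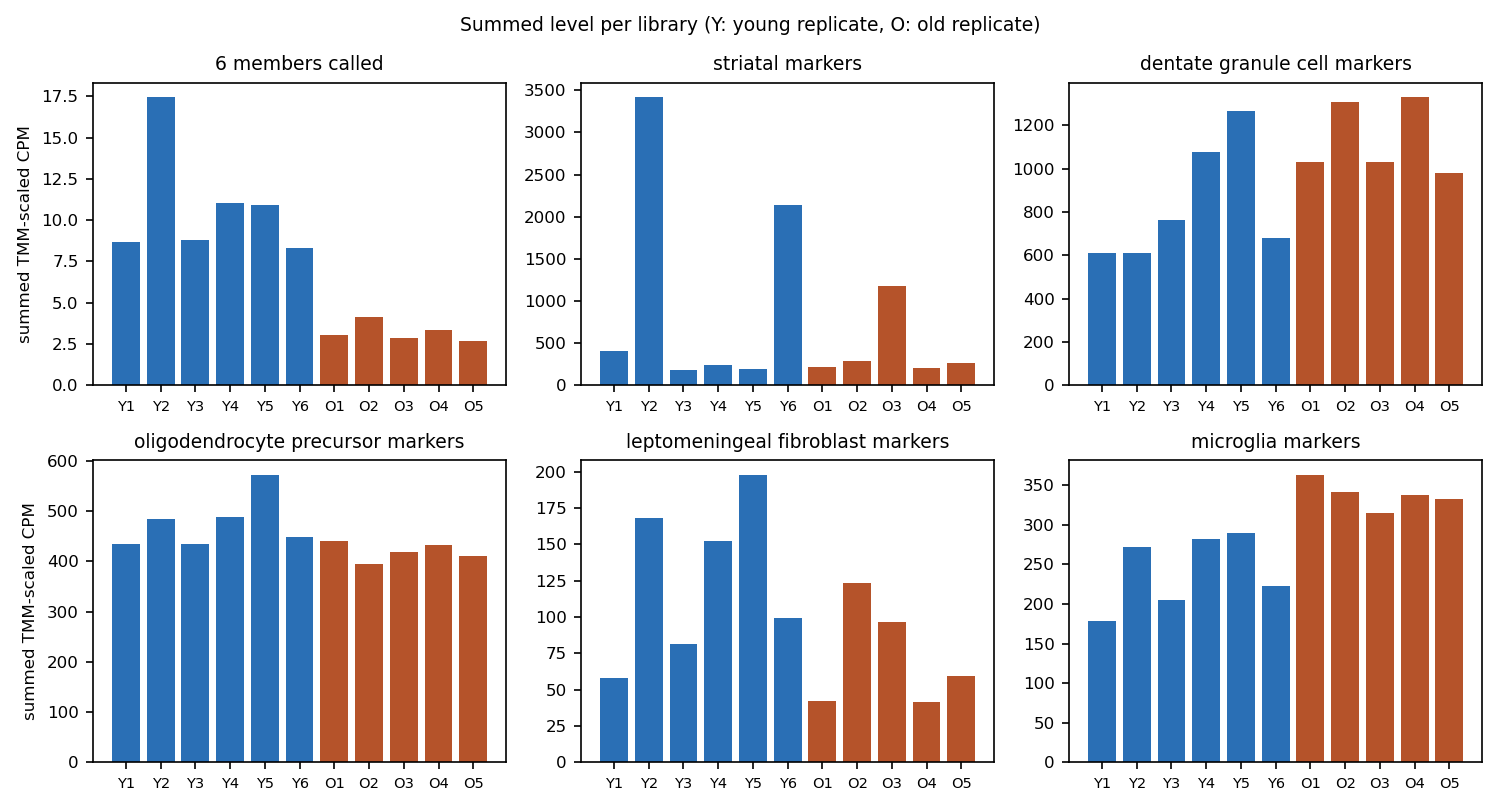
Bars of summed TMM-scaled CPM per library for the 6 fallen genes and 5 marker lists, young mice (Y) in blue and old mice (O) in brown. The 6 genes sum to 2.69 to 4.11 CPM in old and 8.34 to 17.4 CPM in young mice, and the striatal list stands out in young replicates 2 and 6 and old replicate 3.

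The direction of the cross made no difference that passed the test. For CAST against BL6 mother, 0 of 46 members were called by edgeR or by DESeq2, where edgeR called 0.157% of all genes. At an unadjusted p under 0.05 there was 1 member by either tool, against 1.95% of all genes in edgeR. It was Bub1b, lower with a CAST mother by a log2 difference of -0.93 with SE 0.34 (edgeR unadjusted p = 0.0174). For the interaction of age and mother, 0 of 46 members and 0% of all genes were called by edgeR, and at an unadjusted p under 0.05 there were 8 members by edgeR and 11 by DESeq2, which also called 0, with 11.8% of all genes at that level in edgeR. Ccna2 (-0.79), Hmmr (-1.68) and Cenpe (-0.74) had the smallest p, each with an edgeR adjusted p of 0.421. In mice with a BL6 mother alone the median log2 difference of the members was -0.39, and in those with a CAST mother alone it was -0.72, with 0 members called in either. These subsets hold 6 and 5 mice. Of the striatal-rich libraries, young replicate 6 is in the first subset, and young replicate 2 and old replicate 3 are in the second. Their part in the medians was not tested. Without the 3 striatal-rich libraries 0 members were called for mother and 0 for the interaction.

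Allelic reads, which carry a base that differs between BL6 and CAST, numbered 39.7 to 76.9 M per mouse. They allowed 44 members to be tested. The other 2, Mcm6 and Ect2, had means of only 1.73 and 2.09 allelic reads per mouse. Between the strain copies 24 members differed, 15 with the BL6 copy higher and 9 with the CAST copy higher, against 65.5% of 24707 autosomal genes. At an unadjusted p under 0.05 the count was 24 too, against 68.1% of all genes. Bub1b was the most unequal: the BL6 copy gave 84.2% ± 10.0 (SD, n = 11) of its allelic reads, from 60.8% in young replicate 2 to 96.3% in old replicate 5. Pcna was the most even across mice, at 67.3% ± 0.766 (SD, n = 11), within 66.1% to 68.9% in all 11. The other members with a higher BL6 copy were Ccnb1 at 70.2%, Ccna2 at 68.7%, Birc5 at 66.5%, Ccnb2 at 63.1%, Kif11 at 62.1% and Rrm2 at 58.2%, and, between 53.0% and 56.7%, Mki67, Nusap1, Ncapg2, Tk1, Mcm7, Mcm4 and Rrm1.

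The CAST copy was higher in Plk1, with 32.9% ± 5.22 (SD, n = 11) from BL6, Mcm5, with 33.1% ± 2.87, and Prc1, with 33.3% ± 4.30. It was also higher in Aspm, with 38.6% ± 8.15 from BL6, Cenpe with 41.3%, and, at 44.8% to 45.4% from BL6, Tpx2, Nuf2, Mcm3 and Smc2. Of the MCM genes, Mcm3 and Mcm5 leaned toward CAST, and Mcm4 and Mcm7 slightly toward BL6, at 53.1% and 54.2%. Mcm2 did not pass the test and Mcm6 could not be tested. Such differences between copies are common, called in 65.5% of all genes. Over all genes the BL6 share was 50.4% to 51.1% per mouse, and how reads were assigned to copies is not given in the sources used here. Of the fallen genes, Top2a, Cenpf and Aurkb did not pass the test between copies, at 51.8%, 50.9% and 53.6% from BL6.

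Tpx2 was the 1 member that differed by parent of origin, where 0.874% of all genes did. At an unadjusted p under 0.05 there were 5 members, against 4.84% of all genes. Its paternal copy gave 65.9%, 65.2%, 59.0%, 62.4% and 68.4% of the allelic reads in old replicates 1 to 5. In young mice the lowest paternal share was 51.0%, the median 58.0% and the highest 65.4%. The paternal copy was above 50% in all 11 mice, of both crosses, with a range of 60.3% to 68.4% where the father was CAST and 51.0% to 62.4% where he was BL6. The mean was 60.9% ± 5.60 (SD, n = 11) on 125 to 417 reads per mouse. The log2 ratio of maternal to paternal was -0.64 with SE 0.068 (edgeR adjusted p = 1.1e-06), and it passed without any single mouse. Without the 3 striatal-rich libraries it was -0.69 with SE 0.094 (edgeR adjusted p = 0.00013).

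Tpx2 lies at chr2:152847964-152895321 (GRCm38, plus strand), and H13 and Mcts2, a pair known to be imprinted, lie within 300 kb. H13 was mostly maternal, with 28.6% ± 1.72 (SD, n = 11) of reads from the paternal copy (edgeR adjusted p = 6.6e-21). Bcl2l1, also in that window, gave 55.9% ± 2.199 (SD, n = 11) paternal reads (edgeR adjusted p = 1.7e-09), and Mcts2 57.8% ± 10.7 (SD, n = 11; edgeR adjusted p = 0.358). Of the 16 genes tested in the window, 3 passed and 13 did not. The ratio of Tpx2 did not pass the test of a change with age (unadjusted p = 0.021, edgeR adjusted p = 0.648).

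**Figure D5:**
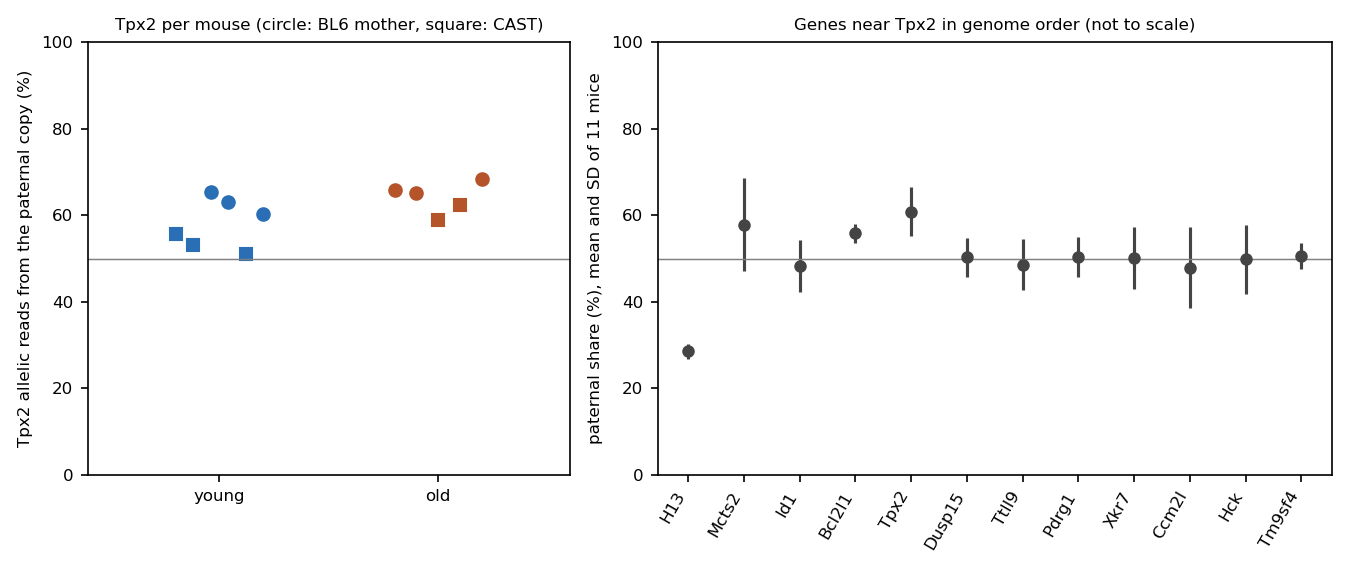
Left, the percent of allelic reads from the paternal copy of Tpx2 in each mouse, by age, with circles for a BL6 mother and squares for a CAST mother. Right, the mean and SD over 11 mice for Tpx2 and the 11 genes near it with a mean of 100 or more allelic reads, in genome order, where H13 lies at 28.6% and all 11 mice of the left panel lie above the line at 50%, from 51.0% to 68.4%.

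The age difference was read from both copies. In CPM of the mouse's allelic reads, the BL6 copy of Top2a was at 0.448 ± 0.281 (SD, n = 5) in old and 2.49 ± 1.33 (SD, n = 6) in young mice, and the CAST copy at 0.353 ± 0.171 and 2.52 ± 1.098, which is 5.56-fold and 7.14-fold lower in old mice. Neither copy overlapped between the ages. The same ratios were 4.19 and 2.65 for Aspm, 2.43 and 2.79 for Cenpf, 2.17 and 2.53 for Rrm2 and 3.39 and 4.19 for Aurkb, for BL6 and CAST in that order, again without overlap in either copy. Ect2 had too few allelic reads for such a ratio. These genes were picked for their difference in the total counts of the same mice. Allelic reads are a part of those counts, so the fall in both copies is no independent evidence. The share of all genes without overlap in both copies was not taken. A difference of the strain ratio with age was called in 0 of 44 members, where 0.166% of all genes were called, and 5 had an unadjusted p under 0.05, against 7.97% of all genes. The smallest belonged to Pbk, 7.32-fold lower in old mice on the BL6 copy and 1.62-fold on the CAST copy (edgeR unadjusted p = 0.0039, adjusted p = 0.297), on 2 to 47 allelic reads per mouse, followed by Mki67 and Aurka with edgeR adjusted p of 0.481 and 0.495. A difference of the parental ratio with age was called in 0 members too, against 0.0769% of all genes, with 2 at an unadjusted p under 0.05 (6.81% of all genes), Rrm1 and Tpx2, and Ncapg2 next.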

How the data were processed

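Polyadenylated RNA of the hippocampus was sequenced with a directional kit per the labels' protocols. The submitters' processing notes name bcl2fastq 2.20, Trim Galore 0.6.6, HISAT2 2.1.0, SAMtools 1.10, featureCounts of Subread 2.0.0 and the build GRCm38. The annotation release, the strand setting and the way reads were assigned to alleles were, for this series, not given in the sources used here. Deposited by the authors were whole-number counts per gene, counts per gene and allele, and TPM per gene. In the allelic table the column i4fb was taken as BL6. Labels name the mice as separate animals, and no pair of libraries of a group was alike within sampling noise (smallest chi-square per gene 45.6).

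The 46 members, their roles and the other gene lists were chosen with earlier results of these data known. For the age comparison, edgeR 4.0.16 in R 4.3.3 took the counts of all genes (TMM, filterByExpr on the age group, quasi-likelihood test, terms for mother strain and age), with the Benjamini-Hochberg adjustment running over all 29383 genes tested. Called means an adjusted p under 0.05, rose and fell are used of called genes, and SE is the absolute log2 difference over the square root of F. The allelic fit took genes on autosomes averaging 10 or more allelic reads in a mouse, the mouse as a block, terms for maternal and BL6 copy and each by age, and the mouse total as library size. Copy terms are the mean of the effects in old and young mice. DESeq2 1.42.0 was run as an alternative. Of 55401 identifiers, 55141 were matched to GENCODE M21. The test procedures were checked on simulated data.

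Mouse-by-mouse values are given for members called with age and the 4 next by p, and for other lists up to 4 genes with the smallest p are named. One gene that this rule names is not reported here. Alternatives were another tool, scaling, filter, covariate or subset of mice. Figures were drawn with matplotlib 3.10.9.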

Additional observations from a re-analysis of the deposited data

Results flagged for a closer look

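Of 92 groups of CPM values (46 genes at 2 ages), 7 held a mouse far from the others of its age by Dixon's criterion, and of 68 groups of BL6 shares, 1 did. Chance gives about 1 such group in 20, and the flagged groups together were about as many as that. Groups that share a library are not separate events. Young replicate 2 accounts for 5 of the 8. It was the highest young mouse in Top2a at 5.99 CPM (others 2.17 to 3.23), in Aspm at 3.38 CPM (others 1.76 to 2.16), in Ect2 at 1.16 CPM (others 0.619 to 0.727) and in Ccnb1 at 0.852 CPM (others 0.327 to 0.477). In Bub1b it was the lowest, at 1.30 CPM (others 1.98 to 2.38). In Tk1, young replicate 6 was the highest at 3.49 CPM (others 1.73 to 2.31), and in Kif15, old replicate 3 was the highest old mouse at 1.37 CPM (others 0.723 to 0.827). The BL6 share of Kif23 was 43.1% in young replicate 4, against 59.4% to 64.3% in the other young mice. Young replicates 2 and 6 and old replicate 3 are the libraries richest in striatal markers, and the part of that tissue in these values was not tested.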

How the results depend on the processing

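Of 22 alternatives for each age result, those that moved a count or the median are as follows. The count of genes called over the table, 90, became 525 with DESeq2, 41 with a mean of at least 1 CPM required, 33 with the dentate term, 15 without young replicates 2 and 6 and old replicate 3, 3 in mice with a BL6 mother only and 0 in mice with a CAST mother only, and 14 to 216 when single libraries were left out. The 6 members called became 16 with DESeq2, 3 with the striatal and 3 with the dentate term, 0 without the 3 libraries named, 0 and 0 in the BL6 and CAST mother subsets, and 1 to 9 when single libraries were left out. The members' median of -0.58 was -0.32 with a mean of at least 1 CPM required, which leaves fewer and more abundant members, and -0.39 in mice with a BL6 mother. In the subsets fewer mice were tested. For the other changes the cause was not tested. No value changed direction. Of the 214 refits of the 10 genes given by mouse, 139 stayed on the same side of the threshold, 58 lost the call and 17 gained it. Counts of members by mother, interaction and copy moved by less than 1.5 times under the alternatives run. Alternatives chosen after seeing the data filtered by the full design, which called 7 members by age, and left the 3 libraries named out of the mother, interaction and copy terms, which called 0, 0, 22 by BL6 against CAST copy, 1 by parent and 0 and 0 for both copy terms by age. Old and young mice were not paired, since each mouse has a number of its own and the labels used here link no old mouse to a young one. The BL6 and CAST copies were compared within each mouse. Scarce members such as Aurkb rest on few counts, which limits their precision.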
